A study of Mus musculus with 8 samples.

Results

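The 44 genes described here encode proteins that detect and mend damaged DNA: 11 of homologous recombination, 9 of the Fanconi anemia pathway, 6 that sense and process broken ends, 6 of end joining, 6 of base excision and single-strand break repair, 3 of nucleotide excision and 3 of checkpoint signalling. They were chosen by name as a set of repair genes and matched by symbol to the Ensembl identifiers of the deposited table. All 44 were among its 15681 genes, and all 44 passed the filter on low values that left 12489 genes for testing.

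Mature B lymphocytes of the spleen, sorted from mice 8 to 10 weeks old, were activated for 72 h with 20 µg/ml lipopolysaccharide, a bacterial product that drives B cells to divide, and 20 ng/ml interleukin 4. RNA sequencing compared 4 genotypes with 2 libraries each: heterozygous cells (control), Myc knock-out cells (Myc_KO), Max knock-out cells (Max_KO) and cells with both knocked out (double_KO). The product of Myc needs Max as its partner to bind DNA and regulate transcription. The labels do not say which alleles the controls carry in 1 copy, how the genes were deleted, or whether each library stands for its own mouse; a p-value here therefore reflects no more than the spread between libraries. Libraries held 14.88 to 17.91 M estimated reads, and levels are given in RPM, estimated reads per 1000000 of the effective library size.

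Groups follow the titles of the samples, which are also the column names of the table. For 2 libraries, double_KO replicate 1 and Myc_KO replicate 2, the description and genotype fields give the other of these 2 genotypes. Max was at 55 and 54.5 RPM in the controls, at 16.4 and 15.5 in Max_KO, at 28.6 and 31.2 in double_KO replicates 1 and 2, and at 70.5 and 59.8 in Myc_KO replicates 1 and 2. In Max, double_KO replicate 1 thus lay near double_KO replicate 2. Myc_KO replicate 2 lay above both controls, as Myc_KO replicate 1 did. The Max levels of the 2 disputed libraries therefore lie with the genotypes of their titles. Myc was at 111 and 116 RPM in the controls, at 48.3 and 55.8 in Myc_KO, at 38.8 and 55.4 in double_KO and at 192 and 176 in Max_KO. Transcript of the targeted gene thus remained in each knock-out group, and more of Max remained in double_KO than in Max_KO. Results that rest on the 2 disputed libraries are given below also without them, by their log2 change or by the adjusted p where the call was lost. That leaves 1 library each in Myc_KO and double_KO, and the spread in that fit comes from the control and Max_KO libraries alone. Those values are therefore no replicated check of the changes in these 2 groups.

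Double-strand breaks in DNA are joined again by 2 main routes. Homologous recombination copies the intact sister chromatid and works in dividing cells after replication, with BRCA1 and BRCA2 at its core, and the Fanconi anemia proteins feed it with breaks made while unhooking crosslinked strands. End joining seals the ends directly with the Ku proteins and DNA ligase IV, and it completes both V(D)J recombination and the class switching that lipopolysaccharide and interleukin 4 induce in B cells. Excision pathways replace damaged bases or short stretches on 1 strand.

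Of the 44 genes, 25 were called in no comparison with the control and 19 in at least 1, and these moved in both directions. In Myc_KO 12 of 44 rose and 3 fell, where 24% of all tested genes rose and 21.4% fell (limma, adjusted p under 0.05). Max_KO had 10 genes higher and 4 lower, against 22.3% and 17.4% of all tested genes. For double_KO the numbers were also 10 and 4, against 21.8% and 16.8%. As shares of the 44 genes these are 27.3%, 22.7% and 22.7% higher and 6.82%, 9.09% and 9.09% lower. In either direction, 34.1%, 31.8% and 31.8% of the 44 genes were called, against 45.4%, 39.7% and 38.6% of all tested genes. The share that rose was thus near that of all genes, and the share that fell was smaller. The median log2 change of the 44 genes was 0.11 in Myc_KO, 0.17 in Max_KO and 0.22 in double_KO, and that of all tested genes was 0, 0.02 and 0.02. The 3 comparisons share the same 2 control libraries.

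**Figure D1:**
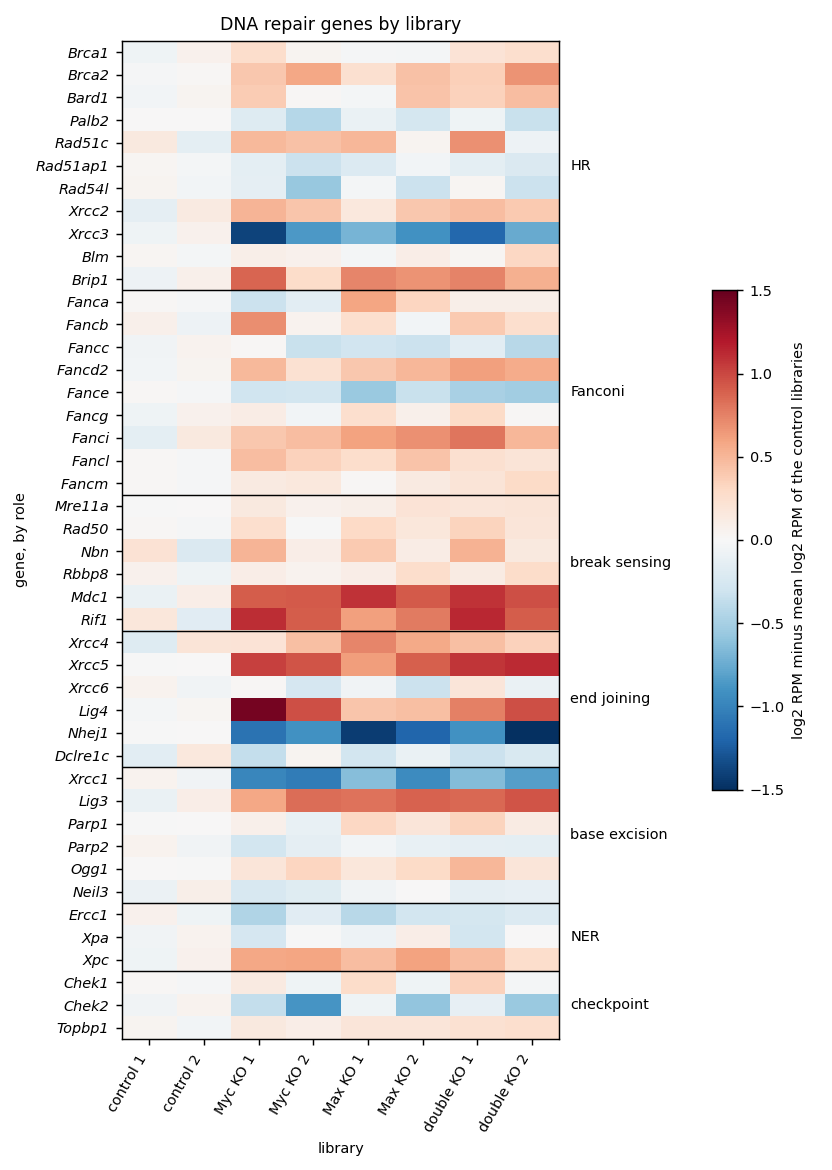
Each row is 1 of the 44 repair genes, in blocks by role, and each column 1 of the 8 libraries; colour gives the log2 RPM minus the mean of the 2 control libraries. Mdc1, Rif1, Xrcc5, Lig4 and Lig3 are higher and Xrcc3, Nhej1 and Xrcc1 lower in each of the 6 knock-out libraries.

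Changes were small in size. A change of 2-fold or more was reached by 5 genes in Myc_KO, 2 in Max_KO and 4 in double_KO, where 20%, 15.9% and 16% of all tested genes reached it, and the log2 changes of the 44 genes ran from -1.13 to 1.20, from -1.30 to 1.0 and from -1.21 to 1.09. Both knock-out libraries lay above both controls for 19 genes in Myc_KO, 21 in Max_KO and 24 in double_KO, against 37.9%, 38.3% and 38.6% of all tested genes. They lay below both controls for 12, 9 and 12 genes, against 37.1%, 35.4% and 35%. As shares of the 44 genes, those above the controls exceeded the shares of all genes, and those below fell short of them. Without the 2 disputed libraries 8 rose and 2 fell in Myc_KO, against 19% and 16.8% of all tested genes. For Max_KO the numbers were then 11 and 3, against 22.2% and 18.2%, and for double_KO 8 and 3, against 16.9% and 12.1%. With the groups of the description field, 14 rose and 3 fell in Myc_KO, against 22.3% and 18.7%. That grouping gave 10 and 4 in Max_KO, against 21.4% and 16.6%, and 9 and 7 in double_KO, against 23.3% and 18.9%.

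The numbers depended on the control libraries and on scaling. The 2 controls also stood apart from the 6 knock-out libraries in other measures: mitochondrial genes took 5.69% and 4.93% of their estimated reads, against 2.21% to 2.96%, and the library total divided by the effective size was 1.092 and 1.043, against 0.956 to 0.995. The part of these differences in the changes against the control was not tested. Without control replicate 1, 5, 4 and 5 genes rose in Myc_KO, Max_KO and double_KO, against 16.1%, 13.5% and 13.8% of all genes tested in that fit, and 2, 1 and 2 fell, against 11.2%, 8.06% and 7.76%. Without control replicate 2, 7, 8 and 6 rose, against 17.8%, 15.1% and 14.7%, and 2, 1 and 1 fell, against 13.8%, 9.8% and 9.23%. Without Myc_KO replicate 1, 7 rose in Myc_KO, against 19.5%. Without Max_KO replicate 2, 6 rose in Max_KO, against 15%. In double_KO, 2 genes fell without replicate 1 and 2 without replicate 2, against 10.7% and 11.5%. The shares of all genes called were thus smaller in these fits too. With each library scaled to the same total, which moved the median log2 change of all genes to 0.15, 0.13 and 0.15, the numbers higher and lower were 15 and 2 for Myc_KO, against 30.8% and 15.5% of all tested genes. They were 15 and 3 for Max_KO, against 27.7% and 13.8%, and 19 and 3 for double_KO, against 28.4% and 12.8%. At this scaling the share of the 44 genes that rose was above that of all genes in each group, by least in Myc_KO and by most in double_KO. No called change of the 44 genes turned its direction under any alternative run.

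**Figure D2:**
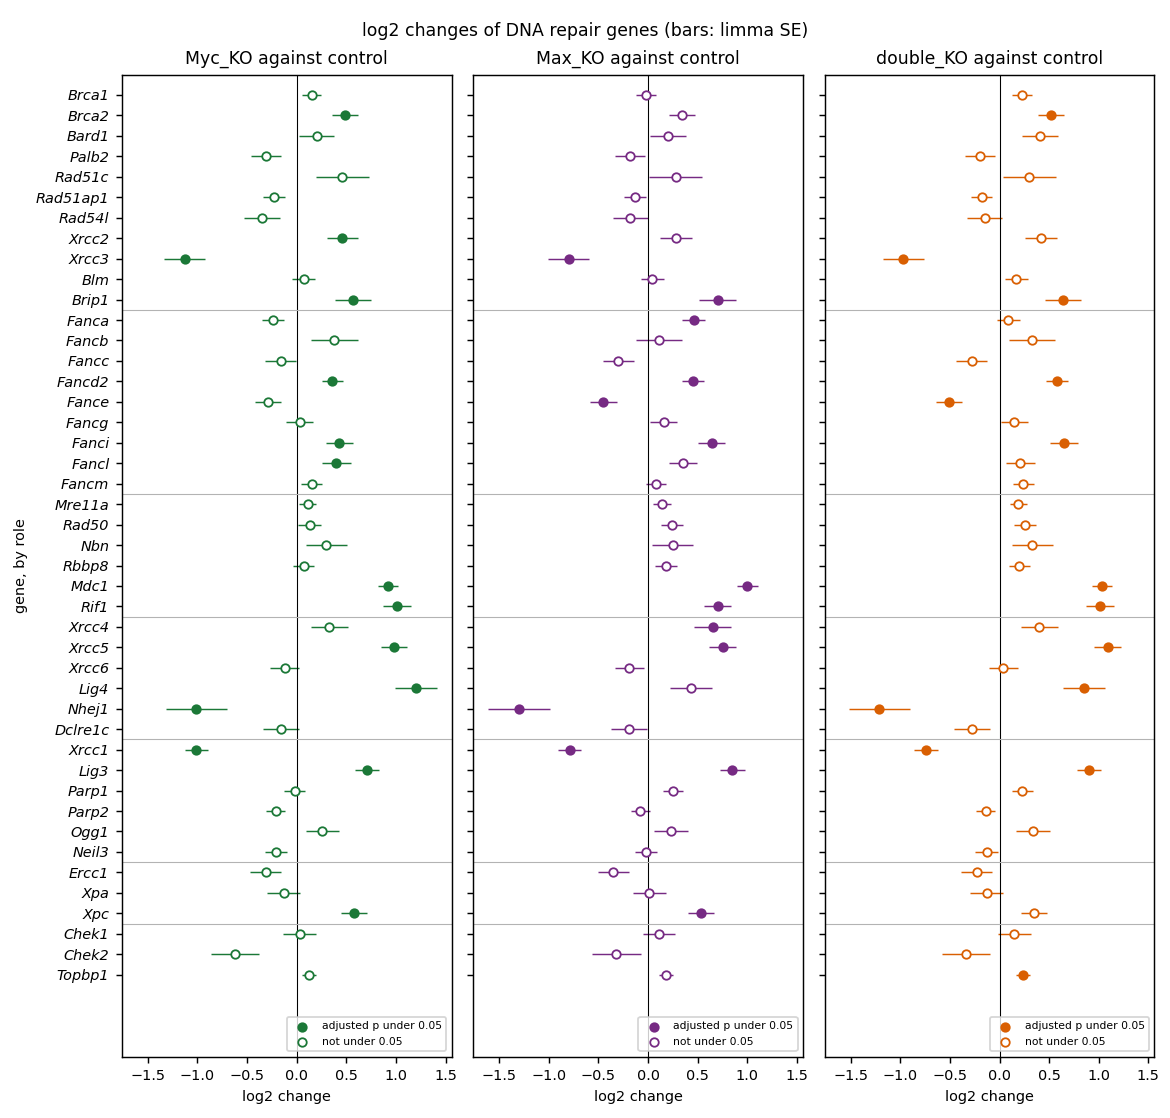
Log2 change of each repair gene (rows, in blocks by role) in Myc_KO, Max_KO and double_KO against control, with limma standard errors as bars; filled points have an adjusted p under 0.05. Mdc1, Rif1, Xrcc5 and Lig3 lie to the right of 0 and Xrcc1, Xrcc3 and Nhej1 to the left in all 3 panels, and most other points lie near 0.

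Promoter sequence of the genes was set beside these values, since Myc and Max dimers bind the letters CACGTG (the E-box) and E2F factors, which switch on genes of DNA replication, bind letters such as TTTCCCGC, TTTGGCGC and TTTCGCGC. RefSeq promoters of GRCm38.p6, each with 250 bases before and 50 after a gene's start, matched 37 of the 44 genes with 40 starts; Xrcc2, Fancd2, Rad50, Nbn, Rbbp8, Rif1 and Xpc were not matched. On either strand, CACGTG stood in 4 of the 40 (Lig3, Parp1, Parp2 and Xrcc5), or 10%, and in 7.15% of all 32851 promoters. At least 1 of the 3 E2F forms stood in 9 of the 40, or 22.5%, and in 1.84% of all promoters; they belong to 8 genes, Bard1, Brca2, Chek2, Fancg, Mdc1, Rad51c, Topbp1 and Xrcc6. The 2 motifs do not overlap in these letters, TTTGGCGC was in none of the 40, and a match of letters is a description and no evidence of binding. The windows of 80 bases shown here belong to the 6 genes of lowest adjusted p among those with a motif and with values in every library below. They are read 5′ to 3′ on the + strand, with the motif in capitals (for Brca2 and Topbp1 it lies on the opposite strand and is seen as its reverse complement).
Mdc1, chr17:35841418-35841497: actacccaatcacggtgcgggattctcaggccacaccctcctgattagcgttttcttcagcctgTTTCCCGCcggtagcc
Xrcc5, chr1:72307186-72307265: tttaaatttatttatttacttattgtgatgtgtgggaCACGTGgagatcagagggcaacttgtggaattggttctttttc
Lig3, chr11:82781029-82781108: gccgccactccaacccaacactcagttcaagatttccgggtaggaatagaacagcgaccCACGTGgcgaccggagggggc
Brca2, chr5:150522417-150522496: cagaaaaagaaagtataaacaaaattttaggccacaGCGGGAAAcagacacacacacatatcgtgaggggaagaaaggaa
Topbp1, chr9:103305162-103305241: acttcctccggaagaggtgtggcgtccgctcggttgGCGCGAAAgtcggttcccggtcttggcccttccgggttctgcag
Parp1, chr1:180568805-180568884: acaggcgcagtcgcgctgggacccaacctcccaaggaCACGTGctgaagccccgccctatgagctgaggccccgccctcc
Of the 4 genes with CACGTG in this window, Xrcc5 and Lig3 rose in each knock-out group, while Parp1 and Parp2 were not called in any.

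Among the genes that sense breaks and process their ends, 2 of 6 rose in each knock-out group and none fell. Beside this and the roles below, 24%, 22.3% and 21.8% of all tested genes rose in Myc_KO, Max_KO and double_KO. In the same order 21.4%, 17.4% and 16.8% fell. With so few genes in each role, these numbers are not a result about the role. Mdc1 (ENSMUSG00000061607, GRCm38 chr17:35841515-35859670) encodes the adaptor that binds phosphorylated histone H2AX at breaks and gathers repair proteins there. It was at 48.6 and 56.1 RPM in the controls, at 98.3 and 98.6 in Myc_KO, at 111 and 99.1 in Max_KO and at 111 and 102 in double_KO. All 6 knock-out libraries lay above both controls, and the 3 knock-out groups lay close together. The log2 changes were 0.92, 1.0 and 1.03 (SE 0.103 each), or 1.89-fold, 2.01-fold and 2.04-fold, with limma adjusted p of 0.000291, 0.00033 and 0.000305.

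Rif1 (ENSMUSG00000036202, GRCm38 chr2:52072832-52122383) acts with 53BP1 to shield broken ends from resection, which favours end joining and is needed for class switching. It was at 68.5 and 54.2 RPM in the controls, at 131 and 114 in Myc_KO, at 93.6 and 105 in Max_KO and at 133 and 114 in double_KO. Again the groups did not overlap, with the lowest knock-out values in Max_KO. The log2 changes were 1.01, 0.70 and 1.01 (SE 0.139 each; limma adjusted p = 0.000774, 0.00534 and 0.00106). The calls of Mdc1 and Rif1 held under every alternative run, and without the disputed libraries their log2 changes were 0.91 and 1.11 in Myc_KO and 0.97 and 0.90 in double_KO.

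The nuclease complex that first binds and trims broken ends was not called. Rad50, its zipper-like subunit and the member of this role with the highest level among those not called, was at 76.8 and 75.1 RPM in the controls, at 90.8 and 75.8 in Myc_KO, at 93.7 and 85.4 in Max_KO and at 96 and 86 in double_KO. Its partner Mre11a, the nuclease, had log2 changes of 0.11, 0.14 and 0.19, and Nbn, which links the complex to the kinase ATM, had 0.30, 0.25 and 0.33. Rbbp8, whose product CtIP stimulates end trimming, had 0.07, 0.18 and 0.20. None of the 4 was called in any group, although some were called higher in a few of the 25 alternatives. For Myc_KO, Max_KO and double_KO these were 4, 4 and 3 for Rad50 and 4, 1 and 2 for Nbn. Mre11a was called in 1 for Myc_KO and 1 for double_KO, and Rbbp8 in 1 for double_KO.

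**Figure D3:**
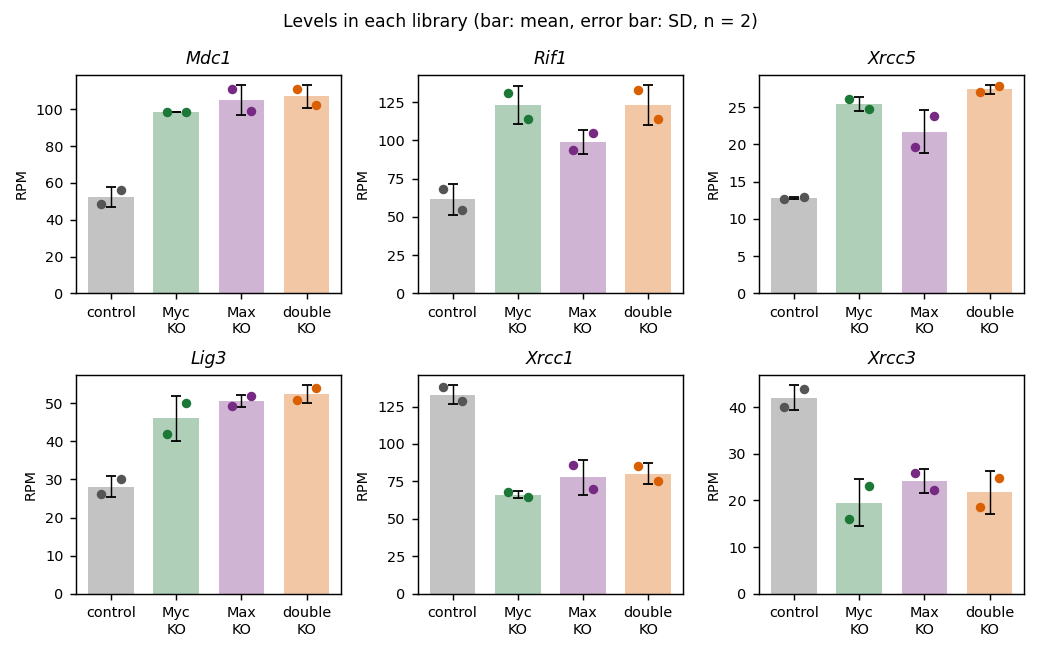
Levels in RPM of 6 repair genes in each library (points) with group means (bars) and SD (error bars, n = 2). Mdc1, Rif1, Xrcc5 and Lig3 are higher and Xrcc1 and Xrcc3 lower in each of the 6 knock-out libraries than in both controls.

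Of the 6 end joining genes, 2 rose and 1 fell in each group. Xrcc5 (ENSMUSG00000026187, GRCm38 chr1:72307421-72394952) encodes Ku80, which forms with Ku70 the ring that threads onto broken ends. It was at 12.7 and 12.9 RPM in the controls, at 26.1 and 24.7 in Myc_KO, at 19.7 and 23.8 in Max_KO and at 27 and 27.8 in double_KO, again without overlap. Its log2 changes were 0.98, 0.75 and 1.09 (SE 0.134 each), or 1.98-fold, 1.69-fold and 2.13-fold (limma adjusted p = 0.000747, 0.00335 and 0.000683), and these calls held under every alternative run. Without the disputed libraries the changes were 1.02 in Myc_KO and 1.11 in double_KO.

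Xrcc6, which encodes the partner Ku70, was at 54.6 and 50.7 RPM in the controls, at 53.1 and 44.3 in Myc_KO, at 50.8 and 42 in Max_KO and at 59.6 and 49.2 in double_KO. These ranges overlapped, and the log2 changes were -0.12, -0.19 and 0.04 (SE 0.147 each; limma adjusted p = 0.544, 0.34 and 0.844). On the scale of RPM per kb of exon, which allows 2 genes to be compared, the level of Xrcc5 divided by that of Xrcc6 was 0.409 and 0.447 in the controls, 0.86 and 0.978 in Myc_KO, 0.679 and 0.992 in Max_KO and 0.792 and 0.989 in double_KO. The ratio was thus higher in all 6 knock-out libraries than in the controls, while its absolute value depends on the annotated exon lengths. The exons of Xrcc6 share 7.7% of their bases with Desi1 on the opposite strand. Log2 changes of Desi1 were -0.25, -0.50 and -0.36, called in Max_KO alone (limma adjusted p = 0.015).

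Lig4 (ENSMUSG00000049717, GRCm38 chr8:9969049-9977686), the ligase that seals the ends, was at 5.38 and 5.61 RPM in the controls, at 14.9 and 10.7 in Myc_KO, at 7.31 and 7.51 in Max_KO and at 9.25 and 10.7 in double_KO. It rested on 86 to 228 estimated reads per library. The log2 changes were 1.20 in Myc_KO and 0.85 in double_KO (SE 0.21 each; limma adjusted p = 0.0024 and 0.0137) and 0.43 in Max_KO, which was not called (adjusted p = 0.138). Max_KO and Myc_KO differed by -0.77 on the log2 scale, which did not pass the test (adjusted p = 0.0902). The call in double_KO was lost without control replicate 1, control replicate 2 or double_KO replicate 2 (adjusted p = 0.0759, 0.0585 and 0.0775). Without the disputed libraries the changes were 1.44 in Myc_KO and 0.96 in double_KO.

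Nhej1 (ENSMUSG00000026162, GRCm38 chr1:74967139-75125200), whose product XLF bridges the ends for ligation, was the end joining gene that fell. It was at 5.26 and 5.31 RPM in the controls, at 2.45 and 2.81 in Myc_KO, at 1.97 and 2.32 in Max_KO and at 2.82 and 1.84 in double_KO, on 33 to 87 estimated reads. The log2 changes were -1.01, -1.30 and -1.21 (SE 0.309 each; limma adjusted p = 0.0281, 0.0115 and 0.0156). Leaving out control replicate 1 ended the call in all 3 groups (adjusted p = 0.117, 0.0678 and 0.0841), as did leaving out control replicate 2 (0.112, 0.0647 and 0.0795). The call in Myc_KO was also lost without Myc_KO replicate 1 or 2 (0.106 and 0.0614) and without the disputed libraries (0.0514), and that in double_KO without double_KO replicate 2 (0.09). Without the disputed libraries the change in double_KO was -1.52. With 5 RPM added to each level before the log, its log2 changes shrank to -0.43, -0.53 and -0.49.

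Of the other end joining genes, Xrcc4, the scaffold of ligase IV, had log2 changes of 0.33, 0.65 and 0.40 and was called in Max_KO alone (limma adjusted p = 0.0244). Omitting control replicate 1 gave an adjusted p of 0.161, and omitting either library of Max_KO gave 0.104 or 0.0556. The differences between the knock-out groups did not pass the test for this gene. Dclre1c, which encodes the hairpin-opening nuclease Artemis, was at 18.9 and 23.5 RPM in the controls and at 16.5 (lowest) and 21.7 (highest) in knock-out libraries, and was not called.

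The 11 homologous recombination genes held 3 that rose and 1 that fell in Myc_KO, 1 and 1 in Max_KO, and 2 and 1 in double_KO. Xrcc3 (ENSMUSG00000021287, GRCm38 chr12:111803192-111813873), which takes part in the strand exchange step of recombination, was at 40.1 and 43.9 RPM in the controls, at 16 and 23.1 in Myc_KO, at 25.9 and 22.3 in Max_KO and at 18.5 and 24.9 in double_KO. Every knock-out library lay below both controls, by log2 changes of -1.13, -0.80 and -0.97 (SE 0.209 each), or 2.18-fold, 1.75-fold and 1.95-fold lower, with limma adjusted p of 0.00319, 0.0169 and 0.00798. The call in Myc_KO held under every alternative run. That in Max_KO was lost without either control (0.0687 and 0.0989) or without Max_KO replicate 2 (0.0856), and that in double_KO without control replicate 2 or double_KO replicate 1 (0.0589 and 0.0511). Without both disputed libraries the changes were -1.39 in Myc_KO and -0.75 in double_KO.

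Xrcc2 and Rad51c, which act in the same step, did not fall. Xrcc2 had log2 changes of 0.46, 0.28 and 0.42 and was called in Myc_KO (limma adjusted p = 0.0452), but not without the disputed libraries (0.115), without control replicates 1 or 2 (0.244 and 0.0579), without Myc_KO replicates 1 or 2 (0.149 and 0.0927) or without double_KO replicates 1 or 2 (0.0632 and 0.0623). Rad51c had 0.46, 0.28 and 0.30 with SE 0.267 and was not called.

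Brca2 (ENSMUSG00000041147, GRCm38 chr5:150522630-150570329), which binds single-stranded DNA at resected breaks and prepares it for recombination, was at 38.5 and 39.2 RPM in the controls, at 51.5 and 57.9 in Myc_KO, at 45.9 and 52.8 in Max_KO and at 49.9 and 61.9 in double_KO. All 6 knock-out libraries were higher than both controls. Log2 changes came to 0.49, 0.34 and 0.52 (SE 0.132 each; limma adjusted p = 0.0172, 0.0727 and 0.0162). The calls were lost without control replicate 1 (0.0887 in Myc_KO and 0.0881 in double_KO), without control replicate 2 (0.0713 and 0.0727), without Myc_KO replicate 2 (0.0879 in Myc_KO), without double_KO replicate 2 (0.0998 in double_KO) and, in Myc_KO, without the disputed libraries (0.059); in double_KO the change without them was 0.67.

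Brip1 (ENSMUSG00000034329, GRCm38 chr11:86058138-86201193), a helicase that binds BRCA1, was at 36.5 and 40.8 RPM in the controls, at 70.7 and 46.6 in Myc_KO, at 64 and 61.6 in Max_KO and at 64.9 and 55.8 in double_KO. The ranges did not overlap with the controls, although Myc_KO replicate 2 came near them. The changes on the log2 scale were 0.57, 0.70 and 0.64 (SE 0.183 each; limma adjusted p = 0.0342, 0.0173 and 0.0253). Without control replicate 1 the adjusted p was 0.175, 0.113 and 0.145, and without control replicate 2 it was 0.0813, 0.0568 and 0.0718. The calls were also lost without Myc_KO replicate 1 (0.167 in Myc_KO), Max_KO replicates 1 or 2 (0.0573 and 0.0544 in Max_KO) and double_KO replicate 1 (0.124 in double_KO). The change in Myc_KO was 0.27 without Myc_KO replicate 1 and 0.87 without Myc_KO replicate 2. Without the disputed libraries the changes were 0.87 in Myc_KO and 0.53 in double_KO.

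Brca1, the tumour suppressor that starts recombination at resected ends, was at 64.1 and 69.8 RPM in the controls, at 80.2 and 68.9 in Myc_KO, at 66 and 65.6 in Max_KO and at 77.4 and 79.4 in double_KO. Its log2 changes were 0.15, -0.02 and 0.23 (SE 0.1 each) and did not pass the test. Its partner Bard1 had 0.20, 0.20 and 0.41, and Palb2, which joins BRCA1 to BRCA2, had -0.31, -0.18 and -0.20. Rad51ap1 and Rad54l, which promote the pairing of DNA strands, had log2 changes between -0.35 and -0.13, and the helicase Blm had 0.07, 0.04 and 0.17. None of these was called in any group.

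Among the 9 Fanconi genes 3 were higher in Myc_KO. Max_KO had 3 higher and 1 lower, and double_KO had 2 higher and 1 lower. Fancd2 and Fanci encode the pair of proteins that is clamped onto DNA when ubiquitin is attached to it. Fancd2 (ENSMUSG00000034023, GRCm38 chr6:113531682-113597017) was at 44.5 and 47.4 RPM in the controls, at 64.5 and 54 in Myc_KO, at 60.6 and 64.7 in Max_KO and at 70.2 and 67.3 in double_KO. Fanci (ENSMUSG00000039187, GRCm38 chr7:79391929-79450264) was at 29.4 and 35.9 RPM in the controls, at 42.9 and 44.8 in Myc_KO, at 49.3 and 52.2 in Max_KO and at 56.6 and 45.8 in double_KO. Both were higher in all 6 knock-out libraries than in the controls.

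For Fancd2 the log2 changes were 0.36, 0.45 and 0.58 (SE 0.109 each; limma adjusted p = 0.0269, 0.0131 and 0.00429), and for Fanci they were 0.43, 0.64 and 0.65 (SE 0.139 each; adjusted p = 0.0342, 0.00779 and 0.00769). Without control replicate 1, Fancd2 had an adjusted p of 0.146 in Myc_KO and 0.0901 in Max_KO, and Fanci had 0.223, 0.0666 and 0.0665 in Myc_KO, Max_KO and double_KO. Fancd2 was also lost in Myc_KO without control replicate 2 or Myc_KO replicate 1 (0.0707 and 0.149) and in Max_KO without Max_KO replicate 2 (0.0706). Fanci was lost in Myc_KO without Myc_KO replicate 1 or 2 (0.0774 and 0.116) and in double_KO without double_KO replicate 1 (0.0512), and in both without the disputed libraries (0.0927 and 0.0584). The call of Fancd2 in double_KO held under every alternative run, and without the disputed libraries its log2 changes were 0.49 in Myc_KO and 0.55 in double_KO. Its change in Myc_KO was 0.23 without Myc_KO replicate 1, and that of Fanci was 0.29 without control replicate 1. The exons of Fanci share 16% of their bases with Polg on the opposite strand, whose own log2 changes were -0.13, -0.10 and -0.09.

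The core complex that attaches the ubiquitin moved unevenly. Fanca (ENSMUSG00000032815, GRCm38 chr8:123268300-123318576), its scaffold, was at 49.1 and 47.9 RPM in the controls, at 38.7 and 43.3 in Myc_KO, at 73 and 60.8 in Max_KO and at 51.7 and 51.7 in double_KO. It lay below the controls in Myc_KO and above them in Max_KO, with log2 changes of -0.24 (limma adjusted p = 0.114), 0.46 (0.0143) and 0.09 (0.558; SE 0.114 each). The call in Max_KO was lost without control replicate 1, control replicate 2 or Max_KO replicate 1 (0.0689, 0.0785 and 0.0785), and with groups from the description field (0.0562). Zfp276, on the opposite strand over 10.5% of its exon bases, had log2 changes of -0.32, 0.08 and -0.17.

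Fance, which bridges the core complex to FANCD2, fell by 0.45 on the log2 scale in Max_KO and by 0.51 in double_KO (limma adjusted p = 0.0283 and 0.0186) and had -0.29 in Myc_KO. Both calls were lost without control replicate 1 (0.134 and 0.102), without control replicate 2 (0.0983 and 0.0752), without the disputed libraries (0.0504 and 0.0737) and when libraries were scaled to the same total (0.074 and 0.052). In groups from the description field the call in double_KO was lost as well (0.0663). They were also lost without Max_KO replicate 1 (0.142 in Max_KO) and without double_KO replicate 1 or 2 (0.0636 and 0.0765 in double_KO). Fancl, the ubiquitin ligase, was called higher in Myc_KO (log2 change 0.40, adjusted p = 0.0486), a call lost in 21 of 25 alternatives and without any 1 of the 8 libraries (0.0598 to 0.175). Its exons share 13.7% of their bases with Vrk2 on the opposite strand, which was called higher in Myc_KO (log2 change 0.55, limma adjusted p = 0.0264). Whether reads of the 2 genes were kept apart there is not known.

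Fancm, the helicase that anchors the complex on DNA, was at 31.8 and 30.9 RPM in the controls, at 34.4 and 34.9 in Myc_KO, at 31.7 and 34.4 in Max_KO and at 35.7 and 38.3 in double_KO, and was not called. Fancb, Fancc and Fancg, further subunits, had log2 changes between -0.30 and 0.38 and were not called.

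Of the 6 genes of base excision and single-strand break repair, 1 fell and 1 rose in each group. Xrcc1 (ENSMUSG00000051768, GRCm38 chr7:24546289-24573440), the scaffold on which single-strand breaks are mended, was at 138 and 129 RPM in the controls, at 67.6 and 64.4 in Myc_KO, at 85.9 and 69.6 in Max_KO and at 85.1 and 75.3 in double_KO. All knock-out libraries were far below the controls. Against the control, log2 changes were -1.01, -0.79 and -0.74 (SE 0.118 each), or 2.02-fold, 1.72-fold and 1.67-fold lower, with limma adjusted p of 0.000346, 0.00162 and 0.00219.

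Lig3 (ENSMUSG00000020697, GRCm38 chr11:82781108-82804274) encodes DNA ligase III, which is bound and stabilised by XRCC1 and also serves mitochondrial DNA. It went the other way, from 26.1 and 30.1 RPM in the controls to 41.8 and 50.1 in Myc_KO, 49.4 and 51.8 in Max_KO and 50.8 and 54.1 in double_KO. On the log2 scale the changes were 0.71, 0.85 and 0.90 (SE 0.124 each; limma adjusted p = 0.00239, 0.00142 and 0.00108). The calls of Xrcc1 and Lig3 held under every alternative run, and without the disputed libraries the changes were -0.98 and 0.58 in Myc_KO and -0.82 and 0.95 in double_KO. Of the exon bases of Lig3, 25.1% are shared with Rffl on the opposite strand; the log2 changes of Rffl were 0.17, -0.08 and 0.05, none of them called. Per kb of exon, Lig3 divided by Xrcc1 was 0.152 and 0.187 in the controls and between 0.461 and 0.623 in the 6 knock-out libraries. The other pairs compared, Lig4 over Xrcc4, Fancd2 over Fanci and Mdc1 over Rif1, did not separate control from knock-out libraries. Their control ratios were 0.525 and 0.422, 1.1 and 0.959, and 1 and 1.46. Knock-out libraries ran from 0.374 to 1.1, from 0.877 to 1.09 and from 1.06 to 1.67.

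**Figure D4:**
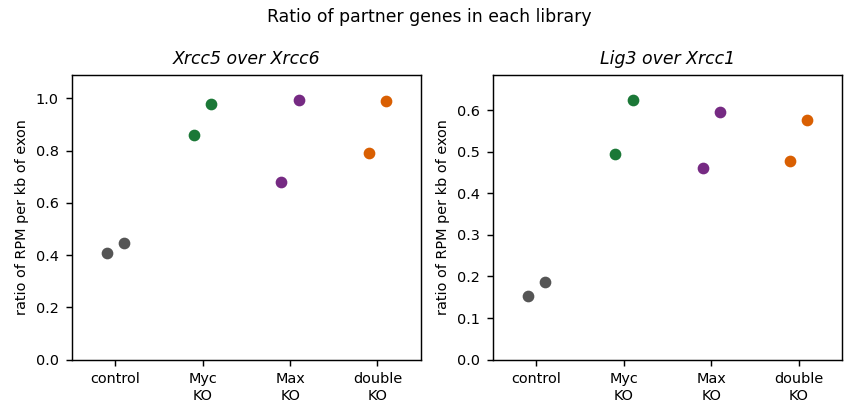
Ratio of the levels of 2 pairs of partner genes, in RPM per kb of exon, in each library (points, 2 per group). Pairs not drawn, given in the text, overlapped between control and knock-out libraries. Xrcc5 over Xrcc6 is 0.409 and 0.447 in control against 0.679 to 0.992 in knock-out libraries, and Lig3 over Xrcc1 is 0.152 and 0.187 against 0.461 to 0.623.

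Parp1, which senses strand breaks and recruits XRCC1, had the highest level per kb of exon of the 44 genes in the controls, at 57.5 RPM per kb. It was at 304 and 306 RPM in the controls, at 322 and 282 in Myc_KO, at 379 and 346 in Max_KO and at 386 and 332 in double_KO. The log2 changes of -0.02, 0.25 and 0.23 (SE 0.103 each) did not pass the test, with limma adjusted p of 0.91, 0.0858 and 0.106. Parp2, its close relative, had -0.21, -0.08 and -0.14. The glycosylases Ogg1, which removes oxidised guanine, and Neil3, which acts in S phase, had log2 changes between -0.21 and 0.34, none of them called.

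Of the 3 nucleotide excision genes, 1 rose in Myc_KO and Max_KO and none was called in double_KO. Xpc (ENSMUSG00000030094, GRCm38 chr6:91489305-91515888), which finds the distorted helix, was at 16.8 and 18.3 RPM in the controls, at 26.2 and 26.4 in Myc_KO, at 24.1 and 26.7 in Max_KO and at 24.1 and 21 in double_KO. Log2 changes came to 0.58, 0.53 and 0.35 (SE 0.13 each; limma adjusted p = 0.00756, 0.0133 and 0.0619). Without control replicate 1 the adjusted p was 0.0592 in Myc_KO and 0.0902 in Max_KO, and without Max_KO replicate 2 it was 0.0802 in Max_KO. Without the disputed libraries the change in Myc_KO was 0.58 (0.0366). Ercc1, part of the nuclease that cuts on the 5′ side, was at 18.3 and 16.7 RPM in the controls, at 12.8 and 15.6 in Myc_KO, at 13.1 and 14.4 in Max_KO and at 14.6 and 15.2 in double_KO. These were all below the controls, but the log2 changes of -0.31, -0.35 and -0.23 were not called. Xpa, which verifies the damage, had log2 changes between -0.13 and 0.01.

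Of the 3 checkpoint genes, 1 rose in double_KO and none was called in Myc_KO or Max_KO. Topbp1 (ENSMUSG00000032555, GRCm38 chr9:103305215-103350428), which activates the kinase ATR, was at 267 and 254 RPM in the controls, at 289 and 278 in Myc_KO, at 295 and 295 in Max_KO and at 305 and 311 in double_KO. The groups did not overlap with the controls, but the change was small, with log2 changes of 0.12, 0.18 and 0.24 (SE 0.0702 each; limma adjusted p = 0.187, 0.0722 and 0.0261). The call in double_KO was lost without control replicate 1 or 2 (0.0701 and 0.136), without double_KO replicate 1 or 2 (0.083 and 0.11), without the disputed libraries (0.0924) and in groups from the description field (0.144). Chek1, the kinase below ATR, was at 36.5 and 35.7 RPM in the controls, at 39.7 and 34.4 in Myc_KO, at 43.7 and 34.5 in Max_KO and at 45.7 and 35.3 in double_KO, which overlapped. Chek2, the kinase below ATM, had log2 changes of -0.62, -0.32 and -0.34 (SE 0.244 each), with all 6 knock-out libraries below both controls. None of these was called (limma adjusted p = 0.0679, 0.324 and 0.302), but the change in Myc_KO was called in 5 of the 25 alternatives.

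Few of these genes, and few of all tested genes, differed between the knock-out groups. Between Max_KO and Myc_KO 1 of 44 genes was called, Fanca, where 4.12% of all tested genes were. Its log2 difference was 0.70 (limma adjusted p = 0.0185), higher in Max_KO. This call was lost with the groups of the description field (difference 0.57, adjusted p = 0.28), without control replicate 1 or 2 (0.053 and 0.0535) and without Myc_KO replicate 1 or Max_KO replicate 1 (0.0997 and 0.0982). The difference was 0.78 (0.0453) without the disputed libraries. Between double_KO and Myc_KO limma called 0 of 44, against 0.456% of all tested genes, and between double_KO and Max_KO 0 of 44, against 0.04%. At an unadjusted p under 0.05 there were 3 of 44 in each, against 12.8% and 6.05% of all tested genes, and with voom weights the adjusted count was also 0 in both.

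The interaction, which asks whether losing both genes changes a transcript by other than the sum of the 2 single losses on the log2 scale, was called for 7 of 44 genes, against 27.3% of all tested genes. These were Mdc1 (-0.89), Rif1 (-0.69), Xrcc5 (-0.64), Lig3 (-0.66), Xpc (-0.76), Xrcc1 (1.06) and Xrcc3 (0.96), with limma adjusted p from 0.00353 to 0.0434. In each, the sign is opposite to that of the change in the single knock-outs, so that the change in double_KO was smaller than their sum. The control libraries enter the interaction with the opposite sign to that in each change against the control. As the knock-out groups lay close together, this sign was nearly fixed by those changes and is no separate result. The call of Mdc1 held in all 24 alternatives and that of Xrcc1 was lost in 1, with groups from the description field (0.0587). Without Max_KO replicate 2 or double_KO replicate 2 the number was 2, against 18.2% and 19.5% of all genes tested in those fits. It was 3 without control replicate 1, against 13.7%, and 4 without control replicate 2 or Myc_KO replicate 1, against 17.6% and 22.7%. It was 5 without the disputed libraries, against 19%.

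Another 113 repair genes outside the set gave a wider background of the same pathways. Of the 111 tested, 22 rose and 21 fell in Myc_KO, 19 and 14 in Max_KO, and 21 and 11 in double_KO. Higher were thus 19.8%, 17.1% and 18.9%, against 24%, 22.3% and 21.8% of all tested genes. Lower were 18.9%, 12.6% and 9.91%, against 21.4%, 17.4% and 16.8%. Median log2 changes were -0.04, 0.01 and 0.05. The small lists that follow, here and in the next paragraph, stand beside the same shares of all tested genes. In base excision, 4 of 17 rose and 2 fell in Myc_KO and in Max_KO, and Neil1, a glycosylase for oxidised bases, went from 133 RPM in the controls to 25.2, 19.1 and 28.9 in the knock-out groups (log2 changes -2.40, -2.80 and -2.24). In translesion synthesis, 4, 3 and 4 of 10 rose and 1 fell in each group, with Rev3l, the catalytic subunit of DNA polymerase zeta, going from 40.5 RPM to 111, 93.1 and 101 (limma adjusted p = 5.61e-05, 0.000237 and 0.000188). In break signalling, 3 of 11 rose in each group and 4, 3 and 3 fell; Trp53bp1, which encodes the partner 53BP1 of RIF1, went from 64 RPM to 95.7, 107 and 106.

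In nucleotide excision, 4, 4 and 6 of 17 rose and 5, 2 and 2 fell. Ddb2, which finds ultraviolet lesions, went from 39.6 RPM to 20.4, 16.3 and 17.8. In homologous recombination, 1, 2 and 2 of 22 rose and 4, 4 and 1 fell, with Sem1 (Shfm1), a small partner of BRCA2, going from 118 RPM to 67.3, 80.1 and 80. In the Fanconi pathway, 2, 1 and 1 of 10 rose and 1, 0 and 0 fell; Usp1, which removes the ubiquitin from FANCD2, went from 174 RPM to 238, 249 and 255. In mismatch repair, 1, 0 and 0 of 7 rose and 1, 1 and 0 fell, and Msh6 had log2 changes of -0.45, -0.30 and -0.30. In checkpoint signalling, 3, 2 and 2 of 10 rose and 2, 1 and 1 fell, and Tipin, of the replication fork, had -0.48, -0.47 and -0.38. In end joining, 1, 0 and 1 of 7 fell, which was the polymerase gene Poll, and none rose.

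**Figure D5:**
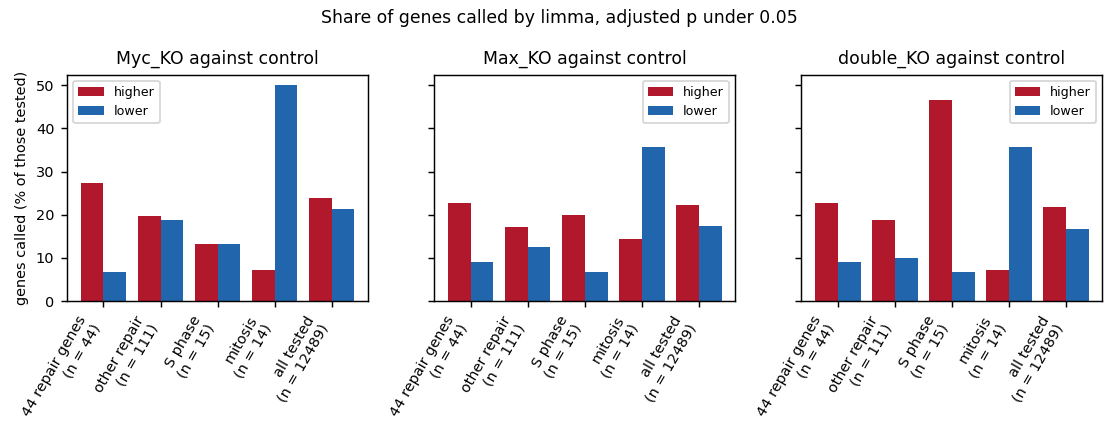
Percentage of tested genes called higher (red) or lower (blue) by limma in Myc_KO, Max_KO and double_KO against control, for the 44 repair genes, 111 other repair genes, 15 S phase genes, 14 mitosis genes and all 12489 tested genes. The repair genes rose at 27.3%, 22.7% and 22.7%, near the 24%, 22.3% and 21.8% of all genes.

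Lists of cell division and of other cell types were counted in the same way, beside 24%, 22.3% and 21.8% of all tested genes that rose and 21.4%, 17.4% and 16.8% that fell. Of 15 S phase genes 2, 3 and 7 rose and 2, 1 and 1 fell in Myc_KO, Max_KO and double_KO, which is 13.3%, 20% and 46.7% higher and 13.3%, 6.67% and 6.67% lower. Of 14 mitosis genes 1, 2 and 1 rose (7.14%, 14.3% and 7.14%) and 7, 5 and 5 fell (50%, 35.7% and 35.7%). Summed over the list, S phase genes ranged from 3080 to 3310 RPM in control and from 3150 to 3810 in knock-out libraries. Mcm4, a subunit of the replicative helicase, had log2 changes of 0.37, 0.37 and 0.54, and Birc5, which encodes survivin of the chromosomal passenger complex, had -0.94, -0.59 and -0.72. The 7 B cell markers summed to 5210 and 5100 RPM in control against 6260 to 7550 in knock-out libraries, and 2 of the 7 rose in each group (28.6%). Of the T and NK cell list, 8 of 10 were tested and 7, 6 and 7 rose; its sum was 81.1 and 84 RPM in control against 133 to 196 in knock-out libraries, mostly from Lck and Cd2, while Cd3e was at 0.0311 and 0.273 RPM in control and from 0.96 to 3.36 in knock-out libraries. Of the myeloid list, 3 of 8 were tested and 3, 2 and 2 rose, with a sum of 3.35 and 4.09 against 9.75 to 33.7. Of the plasma cell list, 5 of 6 were tested, 0 rose and 1, 2 and 1 fell. In bulk samples fewer cells of a type and less RNA per cell cannot be told apart, and the part of these cells in the changes of the repair genes was not tested.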

How the data were processed

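The deposited values are log2 values in 1 table of 15681 genes, made by the authors. Judged by its numbers, a value equals log2((reads + 0.5) / effective library size x 1000000), with reads as estimated. The submitters' processing notes name RSEM 1.2.3, cutadapt, CASAVA 1.8 and the build GRCm38. No source used here states the parameters, annotation or strand setting. Whether reads of overlapping genes on opposite strands were kept apart is therefore not known. Symbols, coordinates and exon lengths came from GENCODE (GRCm38), by gene identifier; 15622 genes had a symbol. Taking the lowest value of a library as 0 reads made all values multiples of 0.01 read within 0.0002 read, that is, estimated reads that need not be whole, and no count test was run.

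A gene was tested if 2 or more libraries had 1 RPM or above, which left 12489. Since the values were log2 already, no pseudocount was added. A linear model over all 8 libraries (R 4.3.3; limma 3.58.1; eBayes with a mean-variance trend; 4 residual degrees of freedom) gave two-sided tests, with Benjamini-Hochberg adjustment over all tested genes and a threshold of 0.05. The fit was also run on simulated data with independent normal noise, in which few genes changed and only in 1 group. Far more genes were called in the real data, so this was a check of the code and not of the calls. Errors of log2 changes are limma SE. Library totals were 14.88 to 17.91 M estimated reads.

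Groups follow the titles; those of the description field, the 6 undisputed libraries and the other alternatives are in the closing section. Members and lists were chosen with earlier results of these data known. Values in every library are given, per role, for up to 3 called genes with the lowest adjusted p, for genes called in opposite directions (none was) or between knock-out groups or in the interaction, and for the gene with the highest mean among those never called; other genes named were chosen for their role. From each other list of repair genes, the gene with the lowest adjusted p is named. Python 3.11.15 with pandas 2.3.3, numpy 2.4.6 and matplotlib 3.10.9 made tables and figures. Items withheld for evaluation are not reported here.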

Additional observations from a re-analysis of the deposited data

Results flagged for a closer look

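The test of the interaction was passed for 7 of the 44 repair genes, or 15.9%, a smaller share than the 27.3% of all tested genes. For these 7 the change on knocking out Max differed between cells with Myc and Myc knock-out cells. On the log2 scale the interaction was -0.89 for Mdc1, -0.69 for Rif1, -0.64 for Xrcc5, -0.66 for Lig3, -0.76 for Xpc, 1.06 for Xrcc1 and 0.96 for Xrcc3. For Fanca the change against the control differed between Max_KO and Myc_KO by 0.70 on the log2 scale, with Max_KO the higher. All of these rest on 2 libraries per group. The interactions also share the control libraries with the changes against the control and largely restate them.

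Leaving out 1 library ended several of these calls (limma adjusted p given in brackets). Without control replicate 1 these were Xrcc3 (0.106), Xrcc5 (0.112), Lig3 (0.105) and Xpc (0.0776), and without control replicate 2 Xrcc3 (0.133), Rif1 (0.106) and Xrcc5 (0.0922). Without Max_KO replicate 2 they were Xrcc3 (0.114), Rif1 (0.0919), Xrcc5 (0.119), Lig3 (0.0741) and Xpc (0.0631), and without double_KO replicate 2 Xrcc3 (0.124), Rif1 (0.0996), Xrcc5 (0.083), Lig3 (0.0534) and Xpc (0.0616). Without Myc_KO replicate 1 they were Xrcc3 (0.101), Rif1 (0.0877) and Xrcc5 (0.0903), without Myc_KO replicate 2 Xrcc5 (0.0652) and Lig3 (0.0715), and without double_KO replicate 1 Xrcc5 (0.0966) and Lig3 (0.077). Without the 2 disputed libraries Xrcc5 (0.124), Lig3 (0.144) and Xpc (0.0501) were not called. With groups from the description field Xpc (0.0688) and Xrcc1 (0.0587) were not called.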

How the results depend on the processing

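Of 132 gene and comparison pairs, 43 were called, none changed its direction in any of 25 alternatives, and 18 were called in all of them. Of the 89 pairs not called, 40 were called in at least 1 alternative; of these 80 gained calls, 59 came with the number series as a term (16), the 30s series alone (14), the same total (17) or the block with the groups of the description field (12). Leaving out 1 library gave 5 to 11 genes higher and 2 to 4 lower in Myc_KO (12 and 3 with all libraries), 4 to 10 and 1 to 4 in Max_KO (10 and 4), 5 to 10 and 1 to 4 in double_KO (10 and 4), 0 to 1 between Max_KO and Myc_KO (1) and 2 to 7 in the interaction (7); fewer libraries were fitted. At an adjusted p of 0.01, 6 and 2 genes were higher and lower in Myc_KO, 5 and 1 in Max_KO, 6 and 2 in double_KO, 0 differed between Max_KO and Myc_KO and 2 passed in the interaction. At an adjusted p of 0.05 with a 2-fold change also asked, the numbers were 2 and 3 in Myc_KO, 1 and 1 in Max_KO, and 3 and 1 in double_KO, 0 differed between Max_KO and Myc_KO and 1 passed in the interaction. For these thresholds, and for the settings here and in the next paragraph without shares above, the share of all tested genes is not given. A changed number there is therefore no result about the repair genes alone. For other settings the cause was not tested. With groups from the description field, 7 fell in double_KO and 0 differed between Max_KO and Myc_KO. With the number series of the titles (30s or 40s) as a term, 5 fell in Myc_KO, 16 rose in double_KO and 3 differed between Max_KO and Myc_KO, and with the 30s series alone 4 differed. Scaled to the same total, 19 rose in double_KO, and after quantile normalization 5 fell in Myc_KO. Without the trend, and with only the groups compared, 0 differed between Max_KO and Myc_KO.

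The replicate numbers of the description field share only a number: deviations of same-numbered libraries correlated between -0.11 and 0.26, and in the groups of the titles both Myc_KO libraries carry number 2 and both double_KO libraries number 1. With these numbers as a replicate block, 6 rose in Myc_KO, 0 differed between Max_KO and Myc_KO and 2 passed in the interaction. With the block and the groups of the description field, 8 fell in double_KO, 0 differed between Max_KO and Myc_KO and 13 passed in the interaction.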
